A study of Mus musculus with 8 samples.

Results

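The 7 genes described here encode transcription factors that set or modulate the osteoblast fate: Runx2, Sp7, Dlx5, Dlx6, Msx2, Atf4 and Runx1. They were chosen by function, with earlier results of these data known, from 21631 protein-coding genes on the 19 autosomes and the X chromosome. For each gene, every island reaching the gene or the 20 kb on either side was read from 7 lists. An island is a stretch of 200 bp windows that the peak caller SICER joined into a single enriched region. Cultures of bone-marrow mesenchymal stem/progenitor cells (MSPCs) from C57BL/6 mice were used at passages 5 to 10. Both genotypes were cultured in the same way: wild type and Asxl1-/-, a null genotype whose deleted part of the gene is not given in the labels. Chromatin immunoprecipitation sequencing mapped H3K4me2, H3K4me3 and H3K27me3 in both genotypes and the ASXL1 protein in wild type alone. Each target and genotype is 1 library, so no comparison below has a replicate check or a test, and all fold changes compare libraries. In a culture, less mark in each cell and fewer cells with the mark cannot be told apart.

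RUNX2 is the transcription factor without which osteoblasts do not form, and SP7 (osterix) acts downstream of it. DLX5, DLX6 and MSX2 are homeodomain proteins of the developing skeleton, DLX5 being an activator of Runx2 and Sp7 and MSX2 largely a repressor. ATF4 is a stress-response leucine zipper factor that mature osteoblasts need for bone matrix production, and RUNX1 is the RUNX family member best known from blood, also expressed in skeletal progenitors. Promoters that are active or poised carry H3K4me3, and enhancers as well as promoters carry H3K4me2. H3K27me3 is laid down by Polycomb and goes with repression. ASXL1 is a chromatin regulator that works with the deubiquitinase BAP1 on histone H2A. Runx1 and Runx2 are each transcribed from a distal and a proximal promoter.

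Runx2 lies at chr17:44495987-44814797 (mm10), spans 318.811 kb and is read from the minus strand. Runx1 lies at chr16:92601466-92826074 and spans 224.609 kb, also on the minus strand. The other members are short: Sp7 at chr15:102356603-102367035, Dlx5 at chr6:6877801-6882068, Dlx6 at chr6:6863334-6867970, Msx2 at chr13:53466881-53472780 and Atf4 at chr15:80255184-80257545. The windows of Dlx5 and Dlx6 overlap, so the 7 windows make 6 regions of 820.85 kb, and islands shared by these neighbours are not independent. RefSeq promoter sequences list a start for 4 members and none for Sp7, Dlx5 and Dlx6. Exons and introns could not be assigned from the tables used.

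The start sequences of the 2 RUNX genes are shown because islands of ASXL1 and both H3K4 marks lay over them, and that of Msx2 because it also carried H3K27me3. Each runs 5′ to 3′ from 250 bases before to 50 bases from the start onward, from RefSeq on GRCm38.p6, the mm10 assembly. Capitals mark the RUNX motif, TGTGGT or its reverse complement ACCACA. The Runx2 start is chr17:44814578-44814877, minus strand. The distal Runx1 start is chr16:92826025-92826324, minus strand, and the proximal Runx1 start is chr16:92697280-92697579, minus strand. The Msx2 start is chr13:53472731-53473030, minus strand.
Runx2: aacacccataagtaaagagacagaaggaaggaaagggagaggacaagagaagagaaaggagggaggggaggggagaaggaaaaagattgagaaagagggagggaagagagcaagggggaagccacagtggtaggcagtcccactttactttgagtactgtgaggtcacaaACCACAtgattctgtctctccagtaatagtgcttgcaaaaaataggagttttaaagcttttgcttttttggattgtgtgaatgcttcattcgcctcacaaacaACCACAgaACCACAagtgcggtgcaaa
Runx1, distal start: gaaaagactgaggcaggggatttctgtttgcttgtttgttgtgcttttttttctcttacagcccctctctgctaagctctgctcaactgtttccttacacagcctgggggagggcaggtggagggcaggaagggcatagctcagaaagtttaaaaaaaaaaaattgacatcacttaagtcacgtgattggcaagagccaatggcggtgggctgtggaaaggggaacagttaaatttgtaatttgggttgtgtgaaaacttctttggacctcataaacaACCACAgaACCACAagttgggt
Runx1, proximal start: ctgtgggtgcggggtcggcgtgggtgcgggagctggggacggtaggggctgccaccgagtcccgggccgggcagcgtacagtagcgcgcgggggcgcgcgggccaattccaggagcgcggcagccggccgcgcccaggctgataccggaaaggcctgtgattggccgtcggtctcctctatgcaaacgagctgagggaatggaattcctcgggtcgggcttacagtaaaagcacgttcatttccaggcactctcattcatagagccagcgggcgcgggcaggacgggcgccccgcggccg
Msx2: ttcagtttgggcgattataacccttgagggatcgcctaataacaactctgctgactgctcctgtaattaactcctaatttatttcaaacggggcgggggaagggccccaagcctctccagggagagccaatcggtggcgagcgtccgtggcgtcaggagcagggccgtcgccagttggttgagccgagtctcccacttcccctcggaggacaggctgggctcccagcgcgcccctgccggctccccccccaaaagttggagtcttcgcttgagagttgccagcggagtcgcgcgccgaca

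The Runx2 start held 3 RUNX motifs and the distal Runx1 start held 2, counted on both strands. Of 32851 mouse promoters of the same length, 16.8% held the motif and 1.81% held at least 2. With the start base counted as 1, the Runx2 motifs lay at positions -80 to -75, 24 to 29 and 32 to 37. Those of the distal Runx1 start lay at 29 to 34 and 37 to 42. In both genes the pair downstream of the start sat in a run of 22 identical bases, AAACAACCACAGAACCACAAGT. The run occurred in 2 of the 32851 promoters, those of Runx2 and Runx1. The proximal Runx1 start held no RUNX motif in this window. Base composition also separated the starts: Runx2 and distal Runx1 held 2 CpG each, against 35 at proximal Runx1, 22 at Msx2, 22 at Atf4 and a median of 7 over all promoters. The homeodomain motif TAATTA, found in 5.29% of promoters, occurred at Msx2 alone among the 5 listed starts, at -187 to -182. These matches describe letters and say nothing of binding.

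In both genotypes every member had H3K4me2 and H3K4me3 islands within 1000 bp of its start, or of either gene end where no start is listed. Among all genes, 63.6% in wild type and 64.6% in Asxl1-/- had H3K4me2 there, and 59.3% and 58.8% had H3K4me3. H3K27me3 reached the start or an end of Sp7, Dlx5, Dlx6 and Msx2 in both genotypes, where 24% of genes in wild type and 22.4% in Asxl1-/- were so marked. It did not reach the starts of Runx2, Atf4 or Runx1. ASXL1 islands lay at Runx2, Sp7, Msx2, Atf4 and Runx1, against 50% of genes, and not at Dlx5 or Dlx6. For Sp7 this depended on the end: its textbook start is the upper end, where there was no H3K4me3 island in either genotype and no ASXL1 island in wild type.

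Covered length, the kb of a window inside islands, gave 202.217 kb of H3K4me2 in wild type, against 216.352 kb in Asxl1-/- over the 6 regions, a ratio of 1.07. H3K4me3 covered 82.617 and 92.817 kb, a ratio of 1.12. H3K27me3 covered 150.28 and 86.545 kb, a ratio of 0.576. Over the whole lists the ratios were 0.928, 1.06 and 1.09, so the members' totals of H3K27me3 and H3K4me2 lay on the other side of 1 from the whole lists. These totals lean on Runx1, which had the largest shift in both. It went from 62.4 to 87.535 kb of H3K4me2 and from 36.6 to 0 kb of H3K27me3. For H3K4me2, Runx2 went the other way, from 77.0 to 60.0 kb. The members' median log2 ratio of -0.12, the value of both Dlx5 and Dlx6, lay on the side of the whole list. Most of the whole-list difference for H3K27me3 lay on chromosome X, which holds no member and went from 1.34 to 15.6 Mb, and the autosomes alone were at 1.02. A gene was called changed when its covered length differed at least 1.5-fold, loss and gain included. By that rule 0 of 7 members changed for H3K4me2, against 31.9% of genes with an island. For H3K4me3 it was 1 of 7, Sp7, higher in Asxl1-/-, against 27% of genes changed and 16.8% higher. For H3K27me3 it was 3 of the 6 members with an island, against 62.5% of genes changed. Msx2 and Runx1 were lower or lost, against 33.5% of genes, and Sp7 was higher, against 29%. Each of these member shares lies below or near the background, so the counts are no result about the members as a group.

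**Figure D1:**
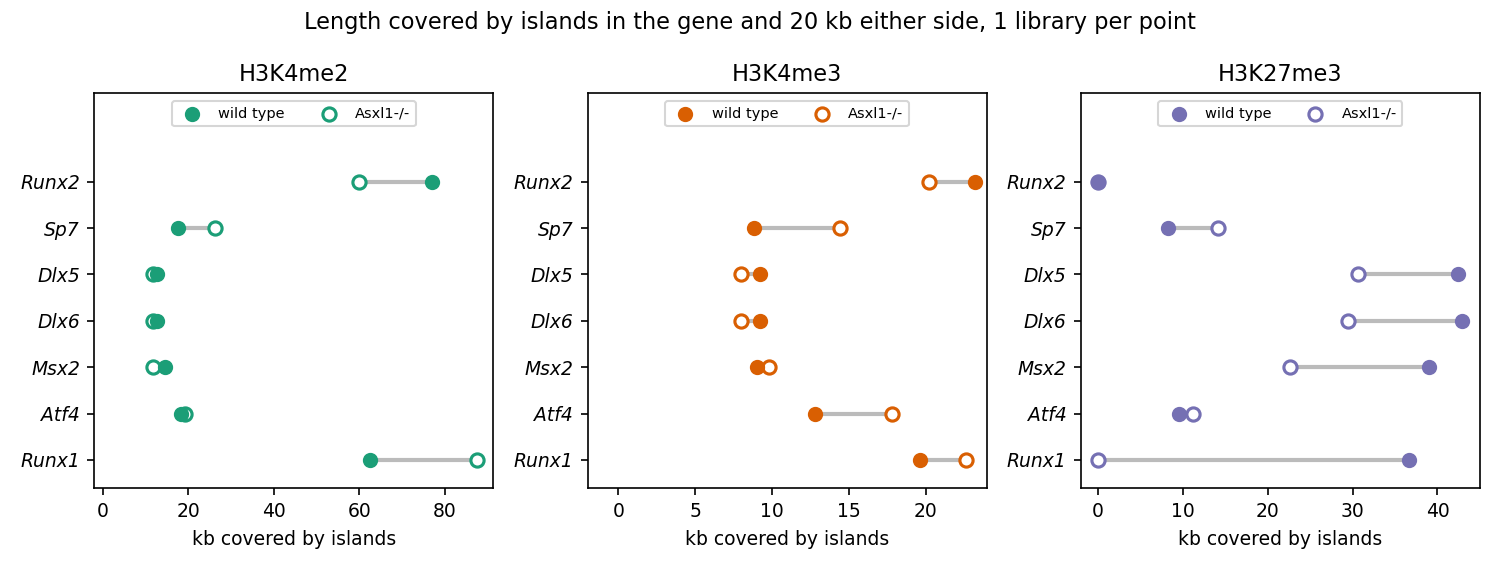
Length covered by islands in each gene and the 20 kb either side, in kb, with 1 panel per mark; filled points are wild type and open points Asxl1-/-, 1 library each. The longest shift is that of Runx1 H3K27me3, from 36.6 kb to 0, while Runx2 has no H3K27me3 island in either genotype.

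Members' medians sat near those of all genes for both H3K4 marks. The median log2 ratio of covered length was -0.12 over 7 members and -0.07 over 16073 genes for H3K4me2. It was 0.12 and 0.13 for H3K4me3, the latter over 14862 genes. For H3K27me3 it was -0.47 over the 5 members covered in both genotypes and -0.05 over 8360 genes. Dlx5 and Dlx6, which share islands, both enter these medians. The -0.47 is the value of Dlx5, beside -0.54 at Dlx6, -0.79 at Msx2, 0.22 at Atf4 and 0.79 at Sp7. The -0.12 for H3K4me2 is the value of both Dlx5 and Dlx6. These medians are thus no result about independent genes. Covered length also differed between genotypes by chromosome. Whole-chromosome ratios for H3K27me3 were 0.996 on chromosome 6, 0.491 on 13, 1.21 on 15, 0.731 on 16 and 0.75 on 17. Msx2, on chromosome 13, was at 0.579, close to its chromosome, and scaled by the chromosome its ratio turned to 1.18. The part of such chromosome-wide differences in the members' values was not tested.

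**Figure D2:**
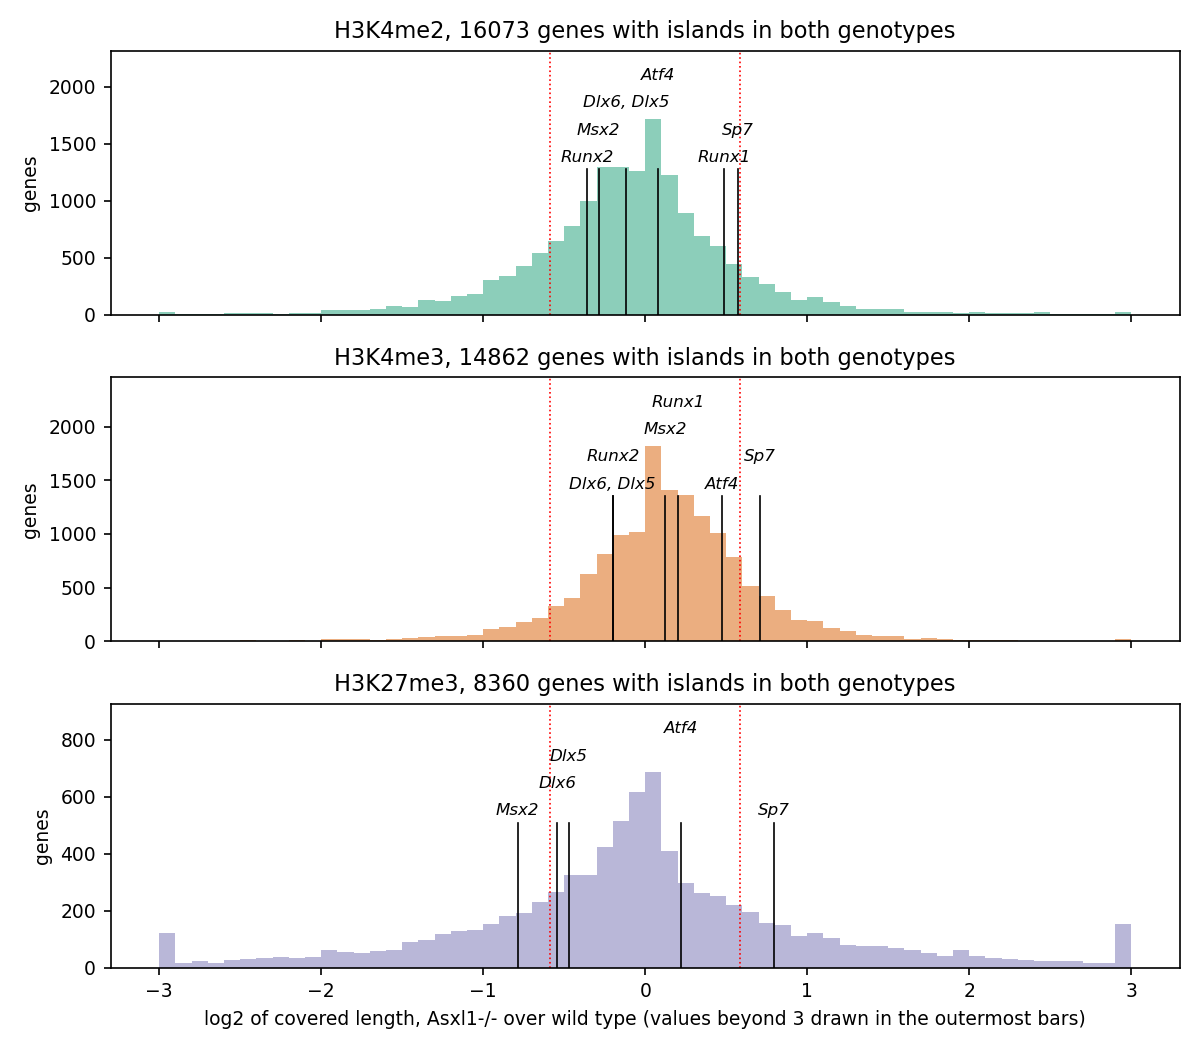
Log2 ratio of covered length, Asxl1-/- over wild type, for all genes with islands in both genotypes (bars, number of genes) and for the members (black lines with names); red dotted lines mark the 1.5-fold limits. Most members lie inside the limits for the H3K4 marks, with Sp7 beyond the upper limit for H3K4me3 and H3K27me3 and Msx2 beyond the lower limit for H3K27me3.

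Runx2, the master regulator of the group, carried many separate islands of ASXL1 and H3K4 methylation and no H3K27me3 island. In wild type 12 ASXL1 islands of 1.6 to 15.8 kb covered 87.6 kb, 24.4% of the window, a higher share than in 84.0% of genes, for which the median was 4.96%. H3K4me3 was nearer the usual level, at 6.47% of the window against a median of 5.58% in wild type and 5.63% against 5.94% in Asxl1-/-. All 12 overlapped H3K4me2 and 6 overlapped H3K4me3. The nearest H3K27me3 island lay 64.387 kb from the gene in wild type and 41.787 kb in Asxl1-/-, so no island of the mark reached the window in either library. At the Runx2 start shown above, the ASXL1 island was 1.6 kb wide. H3K4me3 there was 2.4 kb in wild type, against 3.8 kb in Asxl1-/-, and H3K4me2 was 3.2 and 4.6 kb, so both marks were present and somewhat wider in the mutant library.

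Inside Runx2 the islands of the H3K4 marks overlapped only in part between genotypes. H3K4me2 covered 77.0 kb in 19 islands in wild type and 60.0 kb in 18 islands in Asxl1-/-, of which 41.8 kb was the same sequence. Of the 19 wild-type islands, 12 overlapped an Asxl1-/- island and 7 did not, and 4 Asxl1-/- islands were found there alone. The widest of those 4, at chr17:44682401-44687000, spanned 4.6 kb. H3K4me3 covered 23.2 and 20.2 kb in 6 islands each, 5 of them shared. The wild-type island without a counterpart was chr17:44766401-44769200, 2.8 kb wide, and the Asxl1-/- island without a counterpart was chr17:44676801-44678200, 1.4 kb wide. Both of these places carried ASXL1 in wild type. Over the autosomes and X, 85.3% of wild-type H3K4me2 islands with ASXL1 and 59.1% without it overlapped an Asxl1-/- island. In Runx2 the counts were 11 of 14 and 1 of 5. For H3K4me3 islands with ASXL1 the shares were 84.5% over the autosomes and X and 83.3% in Runx2. Partial overlap is thus not particular to Runx2. No such share is given for islands found in Asxl1-/- alone.

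The broadest H3K4me3 island of Runx2 lay inside the gene, at chr17:44730401-44738600 in wild type (8.2 kb) and chr17:44731801-44739200 in Asxl1-/- (7.4 kb), within a 15.2 kb ASXL1 island. In wild type 5.35% of H3K4me3 islands were as wide, and in Asxl1-/- 13.3% were. The proximal Runx2 promoter is not among the starts used, so this island was not assigned to it. A further island of 4.6 kb in wild type, against 4.0 kb in Asxl1-/- overlapped the listed start of Supt3, a gene that overlaps the upper end of Runx2, and its H3K4me3 cannot be divided between them.

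**Figure D3:**
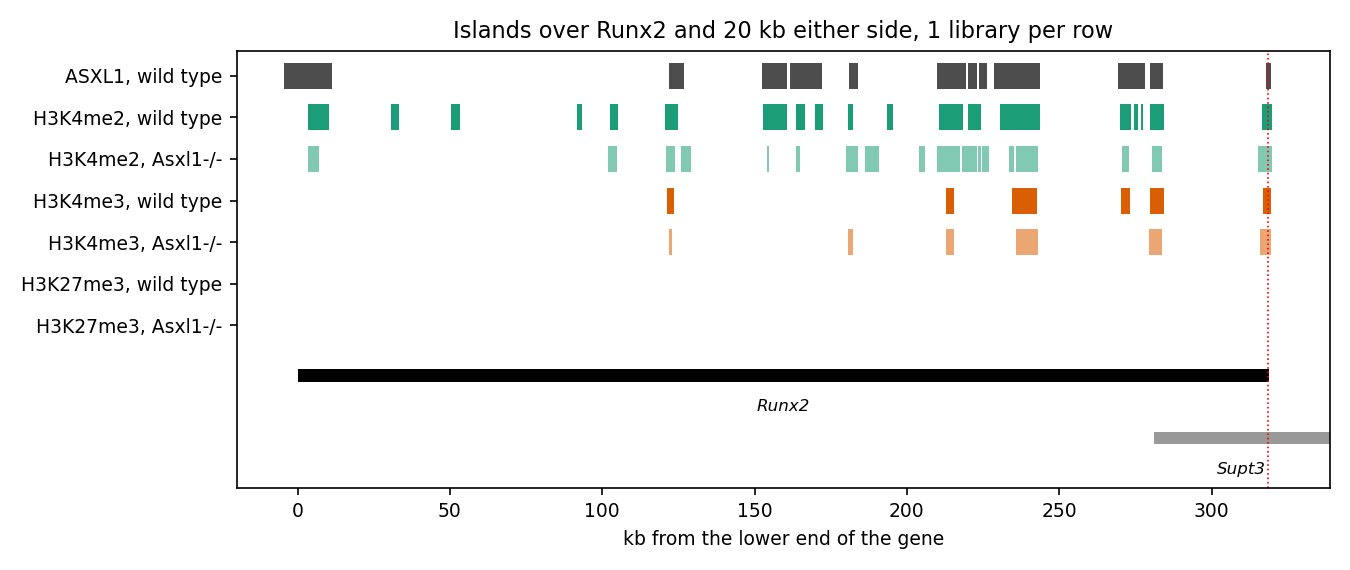
Islands of the 7 libraries over Runx2 and 20 kb either side, 1 library per row, against distance from the lower end of the gene in kb; paler bars are Asxl1-/-, the black bar is Runx2, the grey bar Supt3 and the red dotted line the listed Runx2 start. ASXL1 and H3K4 islands are spread through the gene, and both H3K27me3 rows are empty.

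Runx1, the RUNX paralogue, differed from Runx2 in carrying H3K27me3 in wild type, and that mark was not found in Asxl1-/-. The wild-type library had 4 islands of 4.8, 19.2, 8.2 and 4.4 kb, 36.6 kb in all, between the proximal and the distal start. None of them overlapped ASXL1, H3K4me2 or H3K4me3 in wild type. In Asxl1-/- no H3K27me3 island reached the window, and the nearest lay 91.866 kb from the gene. The island of 4.4 kb at chr16:92782201-92786600 was covered along its whole length by H3K4me2 in Asxl1-/-, where wild type had none. The other 3 were covered by H3K4me2 for 0.2, 0 and 0.8 kb in Asxl1-/-. Loss of all H3K27me3 was seen in 16.5% of genes with an island in either genotype. Of the 1696 genes with at least 36.6 kb in wild type, 44 lost all of it (2.59%), and on chromosome 16 this was 3 of 33 genes (9.09%), Runx1 included.

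The proximal Runx1 start, the CpG-rich one of the sequences above, was where H3K4 methylation was wider in Asxl1-/-. H3K4me3 spanned 8.4 kb in wild type, against 17.0 kb in Asxl1-/-, at chr16:92683601-92700600. Islands as wide as these made up 4.89% of the wild-type list and 0.943% of the Asxl1-/- list, 144 of 15276. H3K4me2 there spanned 10.2 and 19.4 kb, a width reached by 255 of 33586 Asxl1-/- islands. Most of the added length lay downstream of the start. At the distal start H3K4me3 spanned 4.8 and 5.6 kb and H3K4me2 spanned 7.8 and 9.0 kb, a smaller difference.

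Elsewhere in Runx1 some islands were found in 1 genotype alone. Over the window, H3K4me2 covered 62.4 kb in 10 islands and 87.535 kb in 17 islands, a ratio of 1.40 that stayed under the 1.5-fold limit. Chromosome 16 as a whole was at 0.801 for H3K4me2, and scaled by it the Runx1 ratio was 1.75, past the limit. Of the 17 Asxl1-/- islands, 6 had no wild-type counterpart, among them chr16:92777001-92780800 and chr16:92782001-92786600. H3K4me3 covered 19.6 kb in 4 islands and 22.6 kb in 2 islands. The wild-type islands at chr16:92607001-92611200 (4.2 kb) and chr16:92653601-92655800 (2.2 kb), both fully inside ASXL1 islands, had no counterpart. Thus 2 of 4 wild-type H3K4me3 islands, all with ASXL1, overlapped an Asxl1-/- island, too few to set apart from the 84.5% over the autosomes and X. For H3K4me2 no share over all islands is given for those found in Asxl1-/- alone, so these counts are not read as particular to Runx1. In wild type 8 ASXL1 islands of 4.4 to 11.6 kb covered 61.6 kb, 23.3% of the window. All 8 overlapped H3K4me2 and 4 overlapped H3K4me3, among them the islands at both starts.

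**Figure D4:**
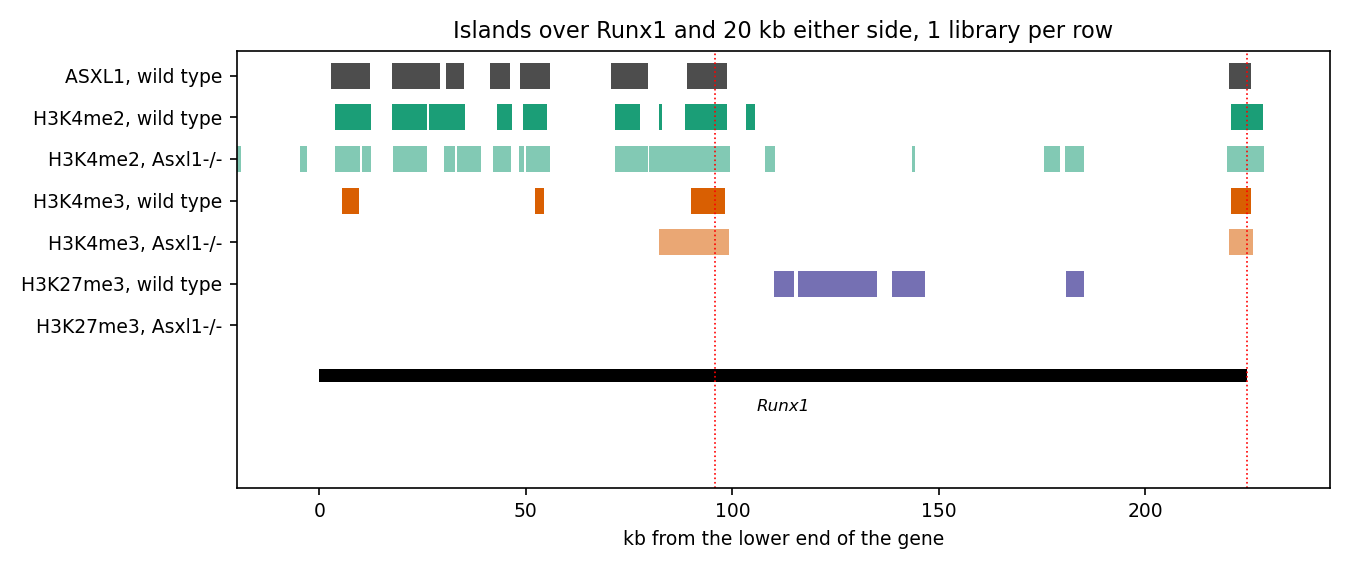
Islands of the 7 libraries over Runx1 and 20 kb either side, 1 library per row, against distance from the lower end of the gene in kb; paler bars are Asxl1-/- and red dotted lines the proximal (left) and distal (right) listed starts. The 4 wild-type H3K27me3 islands lie between the starts and the Asxl1-/- row is empty, while H3K4me3 at the proximal start spans 8.4 kb in wild type, against 17.0 kb in Asxl1-/-.

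Sp7, the zinc finger factor downstream of RUNX2, had H3K27me3 over its upper end and gene body, and that island was wider in Asxl1-/-. It spanned 8.2 kb at chr15:102361201-102369400 in wild type and 14.2 kb at chr15:102357201-102371400 in Asxl1-/-, a ratio of 1.73. Chromosome 15 as a whole was at 1.21, and scaled by it the Sp7 ratio was 1.44, under the limit. H3K4me2 at the upper end spanned 3.0 and 4.4 kb and lay wholly inside the H3K27me3 island, and no H3K4me3 lay there. The H3K4me2 length shared with H3K27me3 was 3.0 kb in wild type, against 7.6 kb in Asxl1-/-.

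The H3K4me3 call for Sp7, 8.8 kb in wild type, against 14.4 kb in Asxl1-/- (1.64), came from 3 islands, none of them at the upper end. They spanned 3.6, 2.6 and 2.6 kb in wild type and 6.0, 3.6 and 4.8 kb in Asxl1-/-. The first overlaps Aaas, a nuclear pore gene, the next lies at the lower end of Sp7 and overlaps the non-coding gene Gm36246, and the last lies beyond the upper end of Sp7. Scaled by chromosome the ratio was 1.38, and with 50 kb either side it was 1.41, both under the limit. Each was wider in Asxl1-/-. The first pair cannot be given to Sp7 rather than its neighbours, while no other gene of the table lay near the last within the window. Both ASXL1 islands of the window, 4.2 and 2.2 kb, lay at the first pair of these. H3K4me2 covered 17.6 and 26.2 kb over the window, a ratio of 1.49 just inside the limit. The islands at chr15:102344201-102348400 and chr15:102370201-102374000 were found in Asxl1-/- alone.

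Dlx5 and Dlx6, homeobox neighbours read toward each other, lay in H3K27me3 in both genotypes with H3K4me3 inside it, and without ASXL1. Wild type had 3 H3K27me3 islands of 24.8, 17.2 and 19.8 kb over the pair, and Asxl1-/- had islands of 17.6, 11.8 and 9.2 kb at the same places. Covered length was 42.468 kb in wild type, against 30.6 kb in Asxl1-/- for Dlx5 (0.721), and 42.837 and 29.4 kb for Dlx6 (0.686), neither called. All of the Asxl1-/- length lay within the wild-type length. Over the gene bodies the covered length was equal in the genotypes, 4.268 kb for Dlx5 and 4.067 kb for Dlx6, so the shorter length was in the flanks. All H3K4me3 of the pair lay within H3K27me3, 9.2 kb in wild type, against 8.0 kb in Asxl1-/-. H3K4me3 spanned 5.2 kb in both genotypes at the lower end of Dlx6, its textbook start, and 4.0 and 2.8 kb at the upper end of Dlx5, its textbook start. H3K4me2 covered 12.6 and 11.6 kb, and the 2.0 kb island between the genes, at chr6:6872801-6874800, was found in wild type alone. The nearest ASXL1 island was 25.133 kb from Dlx5 and 31.934 kb from Dlx6.

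Msx2, the homeodomain repressor, had ASXL1, both H3K4 marks and H3K27me3 at its listed start in wild type, which no other listed start of the members had. A single H3K27me3 island of 39.0 kb covered the whole gene, a width reached by 3.49% of wild-type islands. In Asxl1-/- it was replaced by 3 islands of 8.4, 6.2 and 8.0 kb, so covered length went from 39.0 to 22.6 kb (0.579). Over the gene body itself it went from 5.9 to 1.38 kb. H3K4me3 at the start was an island of 4.4 kb with the same borders in both genotypes, and over the window it covered 9.0 and 9.8 kb. H3K27me3 overlapped all of that H3K4me3 in wild type and 5.0 kb of it (51.0%) in Asxl1-/-. Any such overlap was present at 21.5% of genes in wild type and 18.0% in Asxl1-/-. H3K4me2 covered 14.4 and 11.8 kb, and the start island spanned 6.2 and 8.6 kb, joined in Asxl1-/- with its upstream neighbour. Chromosome 13 was at 0.616 for H3K4me2, and scaled by it the Msx2 ratio turned from 0.819 to 1.33. The 2 ASXL1 islands, 3.6 and 3.2 kb, lay wholly within the wild-type H3K27me3 island.

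Atf4, the stress-response factor, had broad active marks at its start in both genotypes and no H3K27me3 island over the gene. H3K4me3 spanned 12.0 kb in wild type, against 13.4 kb in Asxl1-/-, widths reached by 1.31% and 2.04% of islands. H3K4me2 spanned 14.0 and 14.8 kb and ASXL1 spanned 8.4 kb. These islands also cover Rps19bp1, so they do not belong to Atf4 alone. Over the window H3K4me3 was 12.817 and 17.817 kb (1.39), and a large share of the difference came from an island at the lower end of Mief1, 3.0 kb wide in wild type, against 6.6 kb in Asxl1-/-. An H3K27me3 island of 26.2 kb in wild type, against 31.0 kb in Asxl1-/- began 10.456 and 8.856 kb from the gene, so the window held 9.545 and 11.145 kb of it.

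**Figure D5:**
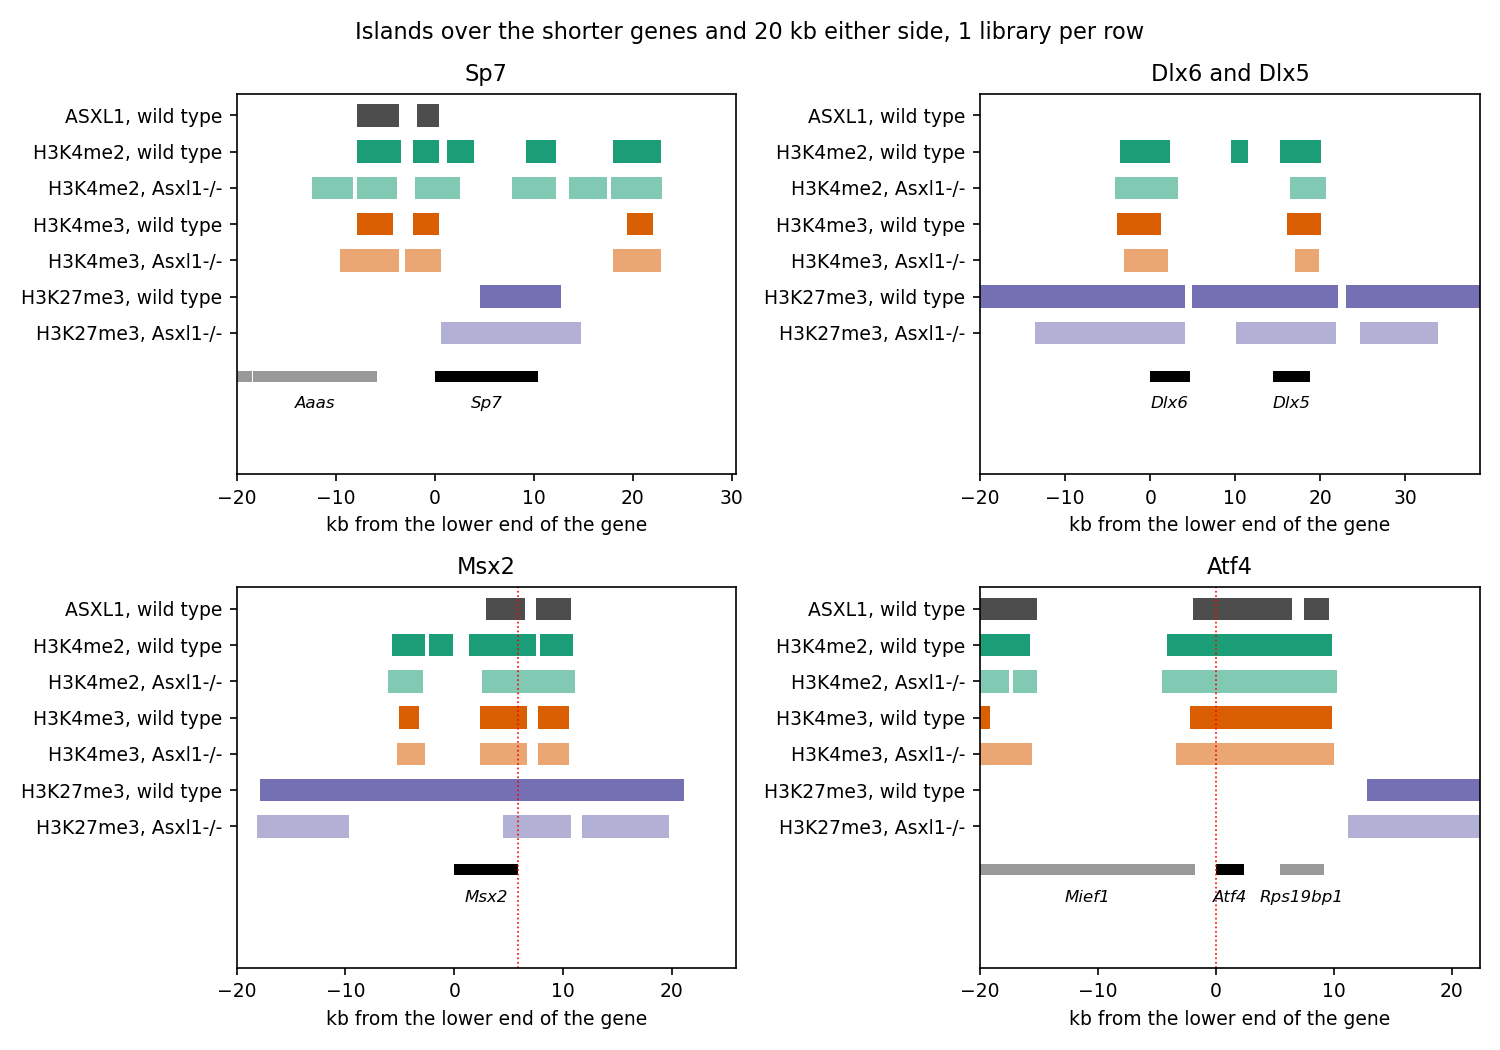
Islands over Sp7, Dlx6 with Dlx5, Msx2 and Atf4 and 20 kb either side, 1 library per row, against distance in kb from the lower end of the gene (of Dlx6 for the pair); paler bars are Asxl1-/-, black bars are members, grey bars other protein-coding genes and red dotted lines listed starts. H3K27me3 islands are wider at Sp7 and narrower around Dlx6, Dlx5 and Msx2 in Asxl1-/-, with equal length over the Dlx gene bodies. Scaled by chromosome, the H3K27me3 ratio is 1.44 at Sp7 and 1.18 at Msx2, both inside the 1.5-fold limit. No ASXL1 island lies in the Dlx panel.

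Most ASXL1 of the members lay in H3K4me2, and most of either H3K4 mark lay under ASXL1. Of the 177.817 kb of ASXL1 in the 6 regions, 79.8% was covered by wild-type H3K4me2, 36.3% by H3K4me3 and 3.82% by H3K27me3. Over the autosomes and X these shares were 74.1%, 47.4% and 5.06%. H3K4me2 covered 24.6% of the regions and H3K4me3 10.1%, and the shares of these marks under ASXL1 were 70.1% and 78.2%. The larger share of ASXL1 in H3K4me2 thus goes with the larger length of that mark. Runx2 and Runx1 held 87.6 and 61.6 kb of the ASXL1, so the pooled shares mainly describe these genes. By member, the share of H3K4me2 under ASXL1 was 78.4% at Runx2, 86.2% at Runx1 and 81.3% at Atf4. It was 36.4% at Sp7 and 44.4% at Msx2, and Dlx5 and Dlx6 had no ASXL1 island. Among the members' wild-type H3K4me2 islands, 25 of 28 with ASXL1 overlapped an Asxl1-/- island (89.3%, exact Clopper-Pearson 95% interval 71.8 to 97.7) and 8 of 15 without ASXL1 did (53.3%, 26.6 to 78.7). Over the autosomes and X the shares were 85.3% of 18745 and 59.1% of 17301. Islands with ASXL1 were wider in the members, a median of 5200 bp against 2800 bp, and across the genome, 4400 bp against 2000 bp. The part of width in this difference was not tested, and the intervals cover the counting of islands only. In Runx2 the counts were 11 of 14 with ASXL1 and 1 of 5 without, and in Runx1 8 of 8 and 1 of 2. Most of the members' islands with ASXL1 thus came from these 2 genes. For H3K4me3 the counts were 13 of 16 with ASXL1 (exact 95% interval 54.4 to 96.0%) and 4 of 4 without (39.8 to 100%), too few to give an order, and 84.5% and 65.8% over the genome.

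By the whole pattern over the 7 libraries, other genes came close to some members. Likeness was the Euclidean distance between the percentages of the window covered in each library. Stard13 and Tom1 were nearest to Runx2, at 2.93 and 3.08 percentage points, where the median over genes was 37.5. For Runx1 they were Vdr, the vitamin D receptor, at 10.1 and Upk3bl at 10.2, with a median of 46.3. For Sp7 they were Thop1 at 12.1 and Cryba4 at 15.4, and for Atf4 Rpl3l at 7.29 and Lsm14b at 12.4. Arc (16.8) and Pkdrej (17.2) were nearest to Dlx5, B3gnt3 (15.9) and Pkdrej (18.7) to Dlx6, and Ccno (13.4) and Ctsf (14.5) to Msx2.

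Genes that act with or under these factors were read in the same windows, in 5 lists of 58 genes. Their counts by the 1.5-fold rule are read against the shares over all genes given above: 31.9% changed for H3K4me2, 27% for H3K4me3 with 16.8% higher, and 62.5% for H3K27me3 with 33.5% lower and 29% higher. Their median log2 ratios are read against -0.07, 0.13 and -0.05. Chromosome-scaled values of these genes were added after seeing the data.

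Among 17 RUNX2 partners and cofactors, H3K4me3 was lower at 2 and higher at 3, near the background, with a median of 0.03. At Wwtr1, which encodes the coactivator TAZ, it covered 27.6 kb in wild type, against 6.8 kb in Asxl1-/-, and at Lef1, a nuclear partner of Wnt signalling, 7.8 and 4.4 kb. It covered 10.8 and 20.6 kb at Ets1 and 2.0 and 3.2 kb at Runx3, the remaining RUNX gene. Wwtr1 and Lef1 lie on chromosome 3, where the whole-chromosome H3K4me3 ratio was 0.700. Scaled by it, Wwtr1 was at 0.352, still lower, and Lef1 at 0.806, inside the limit. H3K27me3 at the 9 partners with an island was lower or lost at 4 and higher or gained at 2, with a median of -0.24. H3K4me2 was lower at 2 and higher at 2 of 17.

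Among 11 other skeletal homeobox genes, H3K4me3 was lower or lost at 4 and higher or gained at 5, with a median of 0.51. Dlx1 and Dlx2, both called lower and both on chromosome 2, had identical covered lengths of H3K4me3, H3K4me2 and ASXL1. Their calls are thus not independent, and the counts and median do not describe 11 separate loci. These genes were named after their values were seen. At Pitx1, a hindlimb homeobox gene, H3K4me3 covered 1.2 kb in wild type, against 9.6 kb in Asxl1-/-, while H3K27me3 covered 51.147 and 6.0 kb. Dlx4 had 1.6 and 4.954 kb of H3K4me3, and Alx4 had 0 and 1.0 kb. H3K27me3 at the 9 of these genes with an island was lower at 1, Pitx1, and higher at none, with a median of -0.31.

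Among 12 antagonists of osteoblast differentiation, H3K4me2 was lower at 3 and higher at none, with a median of -0.30, and H3K4me3 was lower at 1, Zfp521, with 19 kb in wild type and 11.8 kb in the mutant. H3K27me3 was lower or lost at 4 of 7 and higher at 1, with a median of -0.18. Hivep3, the gene of Schnurri-3, which promotes RUNX2 degradation, had 109.042 kb of H3K27me3 in wild type, against 21.4 kb in Asxl1-/-. Hey1, a Notch target, had 35.08 and 18.28 kb, a ratio of 0.521. It lies on chromosome 3, where the whole-chromosome H3K27me3 ratio was 0.222, and scaled by it Hey1 turned to 2.35.

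Among 8 genes of the ATF4 pathway, H3K4me3 was higher at 1 and lower at none, with a median of -0.18. The gene was Ddit3, which encodes the stress factor CHOP, with 16.8 kb in wild type, against 29.808 kb in Asxl1-/-. Chromosome 10 was at 1.45 for H3K4me3, and scaled by it Ddit3 was at 1.22, inside the limit. H3K27me3 was lower at 1 of 5 and higher or gained at 2: Atf5 had 8.345 and 1.945 kb, Atf3 had 33.533 and 52.238 kb and Eif2ak4 had 0 and 1.034 kb. Scaled by chromosome 1, Atf3 was at 1.16, inside the limit.

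Among 10 targets, the matrix and enzyme genes of bone, H3K4me2 was lower or lost at 5 of 8 and higher at 1. Over all genes 31.9% changed, a share that counts both directions. The median of H3K4me2 was 0.23 over the genes covered in both genotypes, a different sign from the count. Of the 5, 3 had lost the mark and do not enter the median. These 3 losses were short, 2.0, 2.6 and 3.4 kb in wild type. That of 2.0 kb lay on chromosome 3, where the whole-chromosome H3K4me2 ratio was 0.532. H3K4me3 was lower at 2 of the 5 with an island and higher at 1. Col1a2, a chain of type I collagen, had 28.383 and 15.4 kb, and Spp1, osteopontin, had 13.253 and 7.653 kb. Alpl, the alkaline phosphatase of mineralising cells, had 0.6 and 1.0 kb. H3K27me3 was lost at 1 of 5 and higher or gained at 2. Ibsp, bone sialoprotein, had 20.4 kb in wild type and 0 in Asxl1-/-, and no H3K4 island. Tnfsf11, the gene of RANKL, had 3.6 and 31.6 kb, and Col1a2 had 0 and 4.343 kb; Tnfsf11 was named after its values were seen.

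Marker genes described the cultures behind these values. H3K4me3 lay at the start of 9 of 10 stromal markers in wild type and 8 in Asxl1-/-, the difference being Eng, and Lepr had none in either. Blood markers had it at 2 of 6 in both genotypes, Spi1 and Cd68, and Ptprc had none. Endothelial markers had it at 1 of 4, Kdr, epithelial markers at 1 of 3, Epcam, and adipocyte and osteocyte markers at 0 of 3 each, in both genotypes. Spi1, Kdr and Epcam also had H3K27me3 at the start in both genotypes, and Cd68 did not. The whole lists held 17884 H3K4me3 islands in wild type and 15276 in Asxl1-/-, 36048 and 33589 H3K4me2 islands, 17712 and 20249 H3K27me3 islands, and 17419 ASXL1 islands. No read counts come with the lists, so the depth is unknown and an island missing from a list can be a weak signal under the caller's limit.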

How the data were processed

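ChIP-seq islands were compared in 7 libraries, 1 per target and genotype; the input library, the last of 8 samples, was not analysed here. Per the submitters' processing notes, the authors used BWA, SICER 1.1 and the mm10 build; the parameters and control are not known here. The deposited lists hold the chromosome, start and end of each island on a 200 bp grid and no other measurement (no count or score), so no test was run. Positions are printed counting from 1.

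Gene spans and starts came from RefSeq tables of GRCm38.p6. A start was marked when an island lay within 1000 bp; where no start is listed (17274 genes have one), either gene end counted, a rule set once the tables were seen. Covered length was taken in the gene and 20 kb either side, an overlap was at least 1 bp and a change was 1.5-fold. The counting was checked on the wild-type lists of each mark. Islands were removed at 200 genes, all 200 of which were then called lost, and 300 windows were recounted another way without a mismatch. This checks the code alone. The scripts used Python 3.11.15, numpy 2.4.6, pandas 2.3.3 and scipy 1.17.1. Members and lists were chosen with earlier results of these data known. Named genes are all members, up to 4 genes a list with the largest called changes (H3K4me3 first, then H3K27me3), the 2 most alike genes per member and neighbours whose end an island reaches; 2 genes that the rule names are not reported here. Alternatives were other windows, the gene body, a 2-fold limit, a minimum island width, joined islands, lists of equal length, other start distances and scaling by chromosome.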

Additional observations from a re-analysis of the deposited data

How the results depend on the processing

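Of 79 recomputed totals, counts and shares, 68 stayed near the value given and 11 moved; of 154 values of single genes, 147 stayed, 5 moved and 2 reversed. A ratio could not be given where wild type had none: H3K27me3 of Runx2 with 50 kb either side (0 and 8.214 kb) and of Atf4 with 10 kb (0 and 1.145 kb). With the gene body alone, the H3K27me3 ratio over the members was 0.345 rather than 0.576. For H3K4me2 the number of members called went from 0 to 1 with 10 kb either side (Dlx5 lower), 1 with the gene body alone (Dlx5 lower) and 1 when scaled by chromosome (Runx1 higher). For H3K4me3 it went from 1 to 0 with 50 kb either side, 3 with the gene body alone (Sp7 and Dlx6 higher, Dlx5 lower), 0 when scaled by chromosome and 0 with a 2-fold limit. For H3K27me3 it went from 3 to 6 with 50 kb either side (Runx2 gained, Sp7 higher, Dlx5, Dlx6 and Msx2 lower, Runx1 lost), 1 when scaled by chromosome and 1 with a 2-fold limit, Runx1 in both cases. Scaled by chromosome, Msx2 H3K27me3 reversed from 0.579 to 1.18 and Hey1 H3K27me3 from 0.521 to 2.35. The causes were not tested beyond what each setting does. The loss at Runx1 could not change under these settings, since no Asxl1-/- island lay within their windows. Those settings are nevertheless counted among the values that stayed. Counting only the textbook start of Sp7, Dlx5 and Dlx6, an alternative chosen after seeing the data, left ASXL1 at 4 members and H3K4me3 at 6, without Sp7. No paired analysis was possible because each target and genotype is 1 library, and no library could be left out. Depth is unknown, so an island missing from a list may be a weak signal.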
